A study of Mus musculus with 12 samples.

Results

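Primary lung endothelial cells of mice that lack the mixed lineage kinases MLK2 and MLK3 (MLK2-/-MLK3-/-, double knockout, DKO) were compared with those of C57BL/6J wild type (WT) mice, both kept at 21% oxygen. The comparison sets 3 libraries of each genotype against each other, 6 of the 12 of the series. It covers the 11378 of 23422 gene identifiers whose summed level averaged at least 1 FPKM over the 12 libraries. FPKM are sequenced fragments scaled by transcript length and library size. The other 6 libraries, 3 DKO and 3 WT, came from cells held for 90 min at 1% oxygen (hypoxia). They show where the genotypes differed otherwise, and they also entered the FPKM filter and the variance estimate behind each limma p. All cells grew as monolayers in serum-containing medium with an endothelial mitogen and heparin. The labels give neither the age or sex of the mice nor the exons each allele lacks. They also do not say whether the WT mice were littermates. Nor do they tie the 3 libraries of a group to different cultures or mice, so the spread behind each p may be technical.

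The mixed lineage kinases are MAP3 kinases. They pass stress and cytokine signals on to the MAP2 kinases MKK4 and MKK7 and from there to the kinase JNK, and MLK3 can also feed the p38 and ERK branches. JNK phosphorylates c-Jun, part of the transcription factor AP-1, whose targets include immediate early genes, inflammatory genes and genes of the cell cycle. Endothelial cells of the lung line vessels that range from large arteries to alveolar capillaries, and the genes that mark these vessel types shift when the cells are grown in culture.

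The genotypes differed in many genes by small amounts. Of the 11378 genes, 929 (8.16%) passed the threshold, a Benjamini-Hochberg adjusted p under 0.05 in limma on log2(FPKM + 1). In DKO, 437 were higher (3.84%) and 492 lower (4.32%). The median absolute log2 change was 0.312 among these 929 genes and 0.0767 over all genes tested, 743 of the 929 differed by less than 0.5, and only 16 higher and 6 lower genes differed by more than 1. Without DKO library 2 the count was 617, and without WT library 2 it was 583. With the 6 normoxia libraries alone in the fit it was 616. The 3 DKO and 3 WT values did not overlap in 2923 of all 11378 genes (25.7%). They did not overlap in 927 of the 929 genes either, so a lack of overlap adds little to a call. All changes below are DKO minus WT on the log2(FPKM + 1) scale, which understates those of genes at low levels, and levels are FPKM, which is per length. The normoxia libraries held an estimated 24000000 to 24800000 fragments each. Whether reads were counted by strand is not given in the sources used here, and some genes named below overlap another expressed gene: Map3k11 with Pcnxl3, Msmp with Rgp1, Ccna2 with Exosc9, Prc1 with Rccd1, Ccnd1 with Oraov1, Tnc with 8030451A03Rik, Pvrl2 with Gm20512, Cd34 with Gm16897, Adamts7 with Tbc1d2b, Tk1 with Afmid and Rpl18 with Sphk2 on the opposite strand, and mt-Nd4l with mt-Nd4 on the same strand. Reads of such pairs cannot be told apart here.

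**Figure D1:**
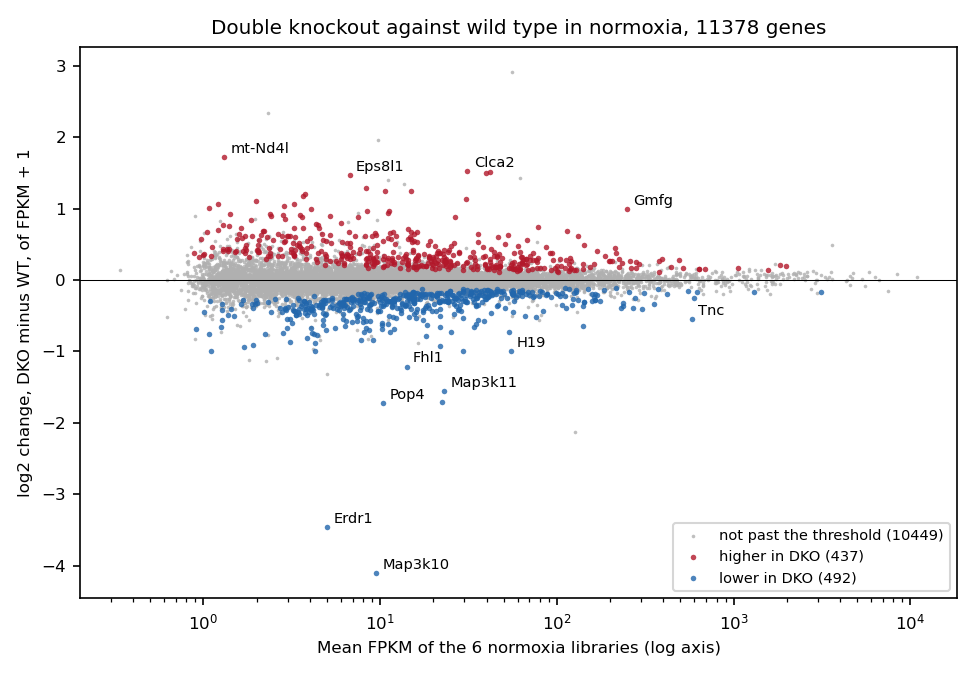
Each point is 1 of the 11378 genes, with its mean FPKM in the 6 normoxia libraries on a log axis against its log2 change, DKO minus WT. The 437 higher (red) and 492 lower (blue) genes past the threshold mostly lie within 1 log2 unit of 0, and Map3k10 and Erdr1 lie lowest.

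The 2 targeted genes were the check of the labels. Map3k10 (ENSMUSG00000040390, GRCm38 chromosome 7, 27656375 to 27674598), which encodes MLK2, was at 0.145, 0.169 and 0.131 FPKM in the DKO libraries and at 18.9, 18.3 and 19.2 in the WT libraries. The DKO mean was 0.789% of WT (limma log2 change -4.11 ± 0.07 SE, adjusted p = 8.25e-12). Most of the WT signal was assigned to a transcript of 2 exons, ENSMUST00000138243, at 15.7 to 15.8 FPKM, which was listed at 0 in every DKO library. What remained in DKO was assigned to the 10-exon transcript ENSMUST00000036453, at 5.64% of its WT level.

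Map3k11 (ENSMUSG00000004054, chromosome 19, 5688742 to 5702865), which encodes MLK3, kept more of its RNA. It was at 11.5, 10.9 and 11.1 FPKM in DKO and at 36.4, 33.8 and 34.0 in WT, so that DKO held 32.2% of the WT level (limma log2 change -1.55 ± 0.05 SE, adjusted p = 2.49e-09). The file lists a single transcript for it, so the loss cannot be placed along the gene. For each targeted gene the groups did not overlap. The two-sided exact permutation p was 0.1 for each, the smallest that 3 against 3 libraries allow.

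No close relative of these kinases passed the threshold. Map3k9, which encodes MLK1, was at 0.383, 0.330 and 0.439 FPKM in DKO and 0.328, 0.437 and 0.410 in WT, too low to be tested. Map3k12, which encodes the dual leucine zipper kinase, was at 10.4, 8.53 and 10.2 FPKM in DKO against 7.95, 8.84 and 8.86 in WT (limma adjusted p = 0.302). Zak, another MAP3 kinase of stress signaling, had a log2 change of 0.05 (limma adjusted p = 0.637), and Map3k7, which encodes TAK1, one of -0.01 (limma adjusted p = 0.857). The groups overlapped for each of these genes.

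Further down the cascade, 1 of 29 tested kinases and scaffolds of the JNK, p38 and ERK branches passed the threshold, which is 3.45% beside 8.16% of all genes. This was Mapk11, which encodes p38 beta, at 26.4, 27.4 and 27.3 FPKM in DKO and 23.1, 21.4 and 23.3 in WT (limma log2 change 0.25 ± 0.05 SE, adjusted p = 0.00592). Kinases below MLK2 and MLK3 had small fitted differences: Map2k4 and Map2k7, which encode MKK4 and MKK7, of 0.01 and 0.03, and Mapk8 and Mapk9, which encode JNK1 and JNK2, of -0.02 and -0.11 on the log2 scale. None of those 4 passed the threshold, with limma adjusted p from 0.240 for Mapk9 to 0.962 for Map2k4.

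Among AP-1 and other immediate early genes, 3 of 18 passed the threshold, 1 higher and 2 lower, with a list median of -0.06 (16.7% beside 8.16% of all genes). Ier5, an immediate early gene that acts on heat shock factor, was at 66.2, 70.4 and 73.5 FPKM in DKO and 58.1, 53.9 and 55.1 in WT (limma log2 change 0.32, adjusted p = 0.000484). Klf6, a zinc finger factor of injury responses, was at 79.1, 80.8 and 82.3 in DKO and 94.7, 90.9 and 94.0 in WT (limma log2 change -0.20, adjusted p = 0.0035). The genotypes did not overlap for either gene. Atf3, a stress factor of the same family as c-Jun, was lower by a limma log2 change of -0.27 (adjusted p = 0.0204), and its call ended without DKO library 2 or 3 or WT library 2 or 3 (adjusted p = 0.0615, 0.0655, 0.0851 and 0.0704).

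Jun itself, the gene of the JNK substrate c-Jun, was at 24.6, 22.9 and 22.9 FPKM in DKO and at 26.4, 24.8 and 24.7 in WT, a log2 change of -0.10 that did not pass the threshold (limma adjusted p = 0.191). Genes that report ERK activity included 3 lower and 0 higher of 8 tested, beside 4.32% of all genes lower. Etv4, an ETS factor, was at 14.5, 14.1 and 13.6 FPKM in DKO and 16.7, 17.1 and 16.8 in WT (limma log2 change -0.25, adjusted p = 0.00268). Ccnd1, which encodes cyclin D1 and drives entry into the cell cycle, was at 386, 387 and 397 in DKO and 434, 466 and 443 in WT (limma log2 change -0.20, adjusted p = 0.00703). Neither gene had overlapping groups, and the third, the feedback inhibitor Spry2, lost its call without DKO library 3 or WT library 1 or 2 (limma adjusted p = 0.0153 with all libraries, and 0.0608, 0.0578 and 0.0572 without each). Of 16 tested MAPK phosphatases, 1 was higher and 2 lower (18.8% beside 8.16% of all genes), led by Dusp4, a nuclear phosphatase of ERK and JNK, at 10.5, 11.1 and 10.6 FPKM in DKO and 14.1, 13.1 and 12.8 in WT (limma log2 change -0.29, adjusted p = 0.00198). Without DKO library 3 or WT library 2, only 1 of these phosphatases passed.

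Genes of mitosis shared 1 direction. Of 38 tested genes of mitosis and G2/M, 22 were lower in DKO and 0 higher, which is 57.9% beside 4.32% of all genes, and all 38 fitted changes were negative. The list median was -0.28 on the log2 scale, beside a median of absolute changes of 0.0767 over all genes. The changes of the 22 ran from -0.44 to -0.20. After each gene was centred over all 12 libraries, the list median was -0.16, -0.14 and -0.10 in the DKO normoxia libraries and 0.07, 0.17 and 0.14 in the WT ones, so no library of one genotype reached those of the other. Without WT library 2, the highest of these, 12 of the 38 passed the threshold.

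Ube2c, the ubiquitin-conjugating enzyme of the anaphase-promoting complex, was at 16.9, 16.3 and 16.1 FPKM in DKO and 22.5, 22.8 and 22.8 in WT (limma log2 change -0.44 ± 0.06 SE, adjusted p = 0.000476). Prc1, which bundles the microtubules of the central spindle, was at 23.3, 21.96 and 24.9 in DKO and 30.6, 30.5 and 29.6 in WT (limma log2 change -0.36, adjusted p = 0.000552). Tpx2, a spindle assembly factor that activates Aurora A, was at 11.3, 11.5 and 11.9 in DKO and 13.8, 14.9 and 15.9 in WT (limma log2 change -0.33, adjusted p = 0.0015). Each of these genes was separate between the genotypes, with DKO at the lower level. Ccna2, which encodes cyclin A2, was at 22.2, 23.3 and 23.4 FPKM in DKO and 27.2, 29.2 and 28.4 in WT (limma log2 change -0.29, adjusted p = 0.00277). Top2a, the topoisomerase that untangles sister chromatids, was at 32.2, 33.2 and 34.6 in DKO and 40.6, 44.2 and 40.3 in WT (limma log2 change -0.31, adjusted p = 0.00394). It lies outside the rule for named genes and was picked after its values were seen, because its promoter is shown. Cdk1, the kinase that starts mitosis, was at 42.3, 48.0 and 55.0 in DKO and 54.2, 58.2 and 60.7 in WT and did not pass (limma adjusted p = 0.0648), and was picked in the same way.

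Many promoters of mitotic genes share the cell cycle genes homology region (CHR), TTTGAA, a short element bound by the DREAM and MuvB complexes. A promoter window of 300 bases, from 250 before to 50 after the gene start, was found in RefSeq (GRCm38.p6) for 33 of the 38 list genes. TTTGAA stood on either strand in 25 of these 33 genes (75.8%), and in 17.9% of all 32851 windows of the table. CCAAT, the box bound by the factor NF-Y that often lies near it, stood in 27 of the 33 (81.8%) and in 37.4% of all windows. Some genes have more than 1 window and count where any window holds the letters, while the shares over the table count windows. The motifs were chosen after the list counts were seen, and a match is a description only. Below are the 3 list genes of smallest p that have a window, each from 200 bases before the start to 10 from it, 5′ to 3′ on the strand of the gene, with TTTGAA or its reverse complement TTCAAA in capitals. Ube2c is on the plus strand at chr2:164769729-164769938, Prc1 on the plus strand at chr7:80294251-80294460 and Top2a on the minus strand at chr11:99024180-99024389.
Ube2c: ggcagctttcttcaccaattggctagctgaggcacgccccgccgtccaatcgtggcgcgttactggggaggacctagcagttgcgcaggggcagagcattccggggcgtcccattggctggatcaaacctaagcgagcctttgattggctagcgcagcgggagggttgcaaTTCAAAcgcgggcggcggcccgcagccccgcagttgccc
Prc1: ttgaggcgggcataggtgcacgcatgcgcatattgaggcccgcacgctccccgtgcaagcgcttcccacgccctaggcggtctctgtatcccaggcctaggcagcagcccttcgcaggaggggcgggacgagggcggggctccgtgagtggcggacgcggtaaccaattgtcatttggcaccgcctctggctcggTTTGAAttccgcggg
Top2a: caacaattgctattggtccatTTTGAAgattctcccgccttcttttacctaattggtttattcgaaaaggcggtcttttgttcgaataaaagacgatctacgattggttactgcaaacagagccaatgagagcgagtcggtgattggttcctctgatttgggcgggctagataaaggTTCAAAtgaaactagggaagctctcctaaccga
The element starts 29 bases before the gene start in Ube2c and 5 before it in Prc1. Top2a has 2, the nearer of them 23 bases before the start.

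**Figure D2:**
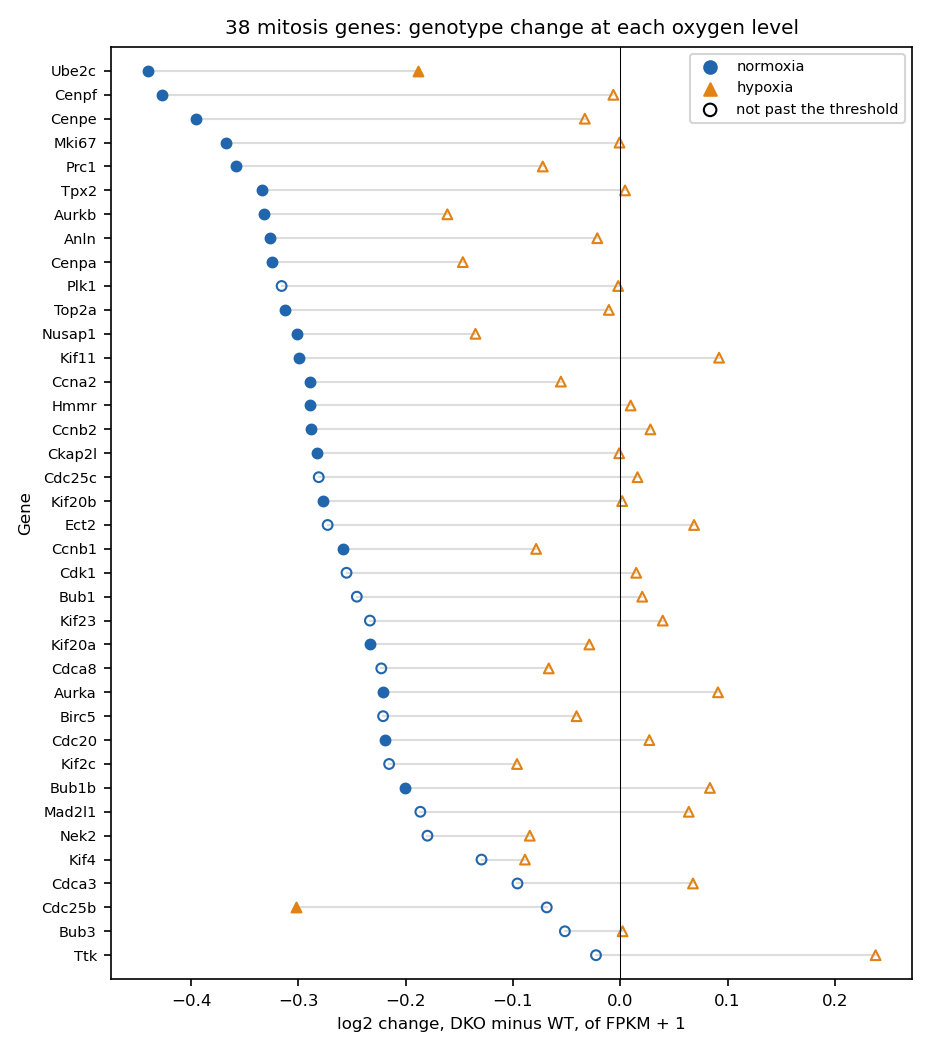
Each row is 1 of the 38 mitosis genes, with the log2 change, DKO minus WT, in normoxia (circles) and in hypoxia (triangles), filled where limma's adjusted p passed the threshold. All 38 circles lie left of 0, 22 of them filled, while the triangles scatter around 0.

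Genes of DNA replication and S phase leaned the same way with smaller changes. Of 40 tested, 7 were lower (17.5% beside 4.32% of all genes) and 0 higher, and 4 of the 40 fitted changes were positive, with a median of -0.13. Pold1, the catalytic subunit of DNA polymerase delta, was at 5.82, 5.76 and 5.56 FPKM in DKO and 8.06, 10.7 and 8.46 in WT (limma log2 change -0.58, adjusted p = 0.00242). Tk1, the S phase thymidine kinase, was at 23.9, 23.9 and 25.5 in DKO and 28.1, 29.4 and 30.03 in WT (limma log2 change -0.25, adjusted p = 0.00476). The groups did not overlap for either. Without WT library 2 or 3, 3 of the 40 passed.

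Of 30 tested targets of p53, the tumor suppressor that halts the cell cycle after damage, 6 were higher and 0 lower, beside 3.84% of all genes higher. Clca2, a membrane protein induced by p53, was at 46.4, 48.7 and 45.2 FPKM in DKO and 17.3, 15.0 and 14.5 in WT (limma log2 change 1.53 ± 0.06 SE, adjusted p = 2.55e-08). Pmaip1, which encodes the cell death protein Noxa, was at 14.4, 15.3 and 12.5 in DKO and 7.85, 8.11 and 9.63 in WT (limma log2 change 0.66, adjusted p = 0.000374). Cdkn1a, which encodes the cell cycle inhibitor p21, was at 78.9, 81.5 and 75.6 in DKO and 58.7, 65.4 and 63.3 in WT (limma log2 change 0.33, adjusted p = 0.00058). These genes were higher in each DKO library than in any WT library. Another inhibitor, Cdkn2a, was at 223, 246 and 266 FPKM in DKO and 194, 178 and 191 in WT (limma log2 change 0.38, adjusted p = 0.00375), again with no overlap. The list median was 0.05, and 3 of the 30 passed without DKO library 2 or without WT library 2.

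The larger losses in DKO, beside Map3k10 and Map3k11, included genes of mixed function. Among them Pop4, Mrps12, Zfp93, Fbxo17 and H19 lie on chromosome 7, as Map3k10 does. The values of H19 are given below with the imprinted genes. Erdr1, a secreted factor of red cell differentiation, was listed at 0 in every DKO library and at 8.96, 11.5 and 9.72 FPKM in WT (limma adjusted p = 1.92e-09). Pop4, a protein of RNase P, was at 3.46, 4.73 and 4.80 in DKO and 17.5, 15.9 and 15.9 in WT (limma log2 change -1.72 ± 0.09 SE, adjusted p = 7.15e-07). Fhl1, a LIM domain protein of muscle and other cells, was at 7.30, 9.83 and 7.29 in DKO and 17.6, 20.9 and 21.7 in WT (limma log2 change -1.21 ± 0.20 SE, adjusted p = 0.00296). None of these genes overlapped between genotypes. Mrps12, a protein of the mitochondrial ribosome, was at 18.4, 20.0 and 19.8 FPKM in DKO and 40.5, 41.1 and 37.6 in WT (limma log2 change -0.9975, adjusted p = 3.95e-06), with Zfp93 (-0.99), Fmr1nb (-0.99) and Fbxo17 (-0.93) next. Fmr1nb was the least even of them, at 0.0965, 0.875 and 0.305 in DKO and 1.72, 1.57 and 2.03 in WT. Syne2, a nuclear envelope protein that ties the nucleus to the cytoskeleton, was lower by a limma log2 change of -0.91 (adjusted p = 0.018), and its call ended without DKO library 1 or 2 or WT library 2 or 3 (adjusted p = 0.0527, 0.0718, 0.0782 and 0.0718).

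Among the largest gains, Lyz2, which encodes lysozyme, was at 59.6, 57.8 and 69.0 FPKM in DKO and 22.2, 16.9 and 25.2 in WT (limma log2 change 1.51 ± 0.11 SE, adjusted p = 9.99e-06), and reads of the near-identical Lyz1 could be split with it. Blvrb, which encodes biliverdin reductase B, was at 58.8, 57.8 and 61.6 in DKO and 20.8, 19.6 and 21.0 in WT (limma log2 change 1.49 ± 0.06 SE, adjusted p = 3.75e-08). Eps8l1, an adaptor of actin remodeling, was at 12.6, 8.43 and 9.99 in DKO and 2.56, 4.19 and 2.59 in WT (limma log2 change 1.47 ± 0.28 SE, adjusted p = 0.00627). DKO was the higher group in each of these, with no overlap. Dapk2, a calcium-dependent kinase of the death-associated family, was at 40.2, 43.1 and 44.1 FPKM in DKO and 18.3, 18.4 and 19.6 in WT (limma log2 change 1.13, adjusted p = 9.25e-07). Msmp, a secreted chemoattractant, was at 11.6, 12.7 and 12.3 in DKO and 3.75, 4.20 and 5.46 in WT (limma log2 change 1.28, adjusted p = 1.1e-05). The mitochondrial gene mt-Nd4l, at 1.60, 1.33 and 4.92 FPKM in DKO, was listed at 0 in every WT library (limma adjusted p = 0.00979), and its reads cannot be separated from those of mt-Nd4.

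**Figure D3:**
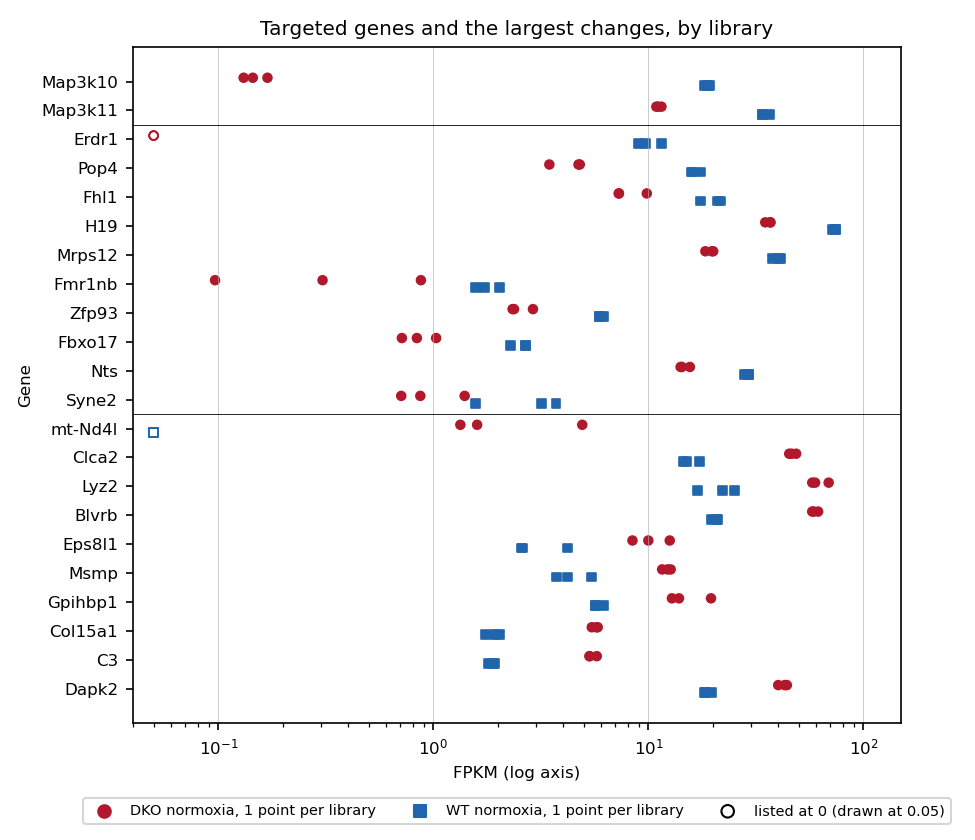
FPKM of the targeted genes (top), the 10 largest named losses (middle) and the 10 largest named gains (bottom) on a log axis, 1 point per normoxia library, circles for DKO and squares for WT, with open marks at 0.05 for values listed at 0. The named losses and gains were chosen among genes whose groups do not overlap. Syne2 comes closest to overlap, with 1.40 in the highest DKO library and 1.58 in the lowest WT library.

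Some abundant genes differed as well. Tnc, the matrix glycoprotein tenascin C, was at 464, 469 and 471 FPKM in DKO and 691, 780 and 596 in WT (limma log2 change -0.55 ± 0.08 SE, adjusted p = 0.000877). Gap43, a growth-associated membrane protein best known from axons, was at 108, 108 and 112 in DKO and 175, 160 and 179 in WT (limma log2 change -0.64, adjusted p = 5.01e-06). Gmfg, an actin regulator of the glia maturation factor family, was at 294, 344 and 357 in DKO and 172, 160 and 165 in WT (limma log2 change 0.99, adjusted p = 3.39e-06). Their groups were separate. Pvrl2, the adhesion protein nectin-2, was higher by 0.61, carbonic anhydrase Car2 by 0.69, the heparan sulfate proteoglycan Sdc4 by 0.55 and the peptidase Pepd by 0.63, each with a limma adjusted p of at most 3.32e-05.

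The cells carried endothelial RNA in both genotypes. The summed level of the 32 pan-endothelial markers was 7110, 7260 and 7100 FPKM in DKO and 7040, 6900 and 7030 in WT. Of 31 tested, 7 were higher (22.6% beside 3.84% of all genes) and 0 lower, by small amounts, with a list median of 0.03. Esam, an adhesion molecule of tight junctions, was at 133, 132 and 130 FPKM in DKO and 109, 108 and 103 in WT (limma log2 change 0.31, adjusted p = 0.000163). Cd34, a sialomucin of vessels, was at 296, 311 and 308 in DKO and 249, 258 and 261 in WT (limma log2 change 0.25, adjusted p = 0.000373). Both had DKO above WT with no overlap, and both calls held without any single normoxia library. The count of 7 was 3, 2 and 4 without DKO library 1, 2 or 3 and 4, 2 and 3 without WT library 1, 2 or 3.

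Markers of vessel type moved in both directions. Of 18 tested markers of lung capillaries, arteries or veins, 3 were higher and 5 lower (44.4% beside 8.16% of all genes), with 5 passing without DKO library 1 or without DKO library 2. Gpihbp1, which carries lipoprotein lipase across capillary endothelium, was at 12.9, 13.9 and 19.6 FPKM in DKO and 6.16, 5.66 and 5.64 in WT (limma log2 change 1.25 ± 0.13 SE, adjusted p = 0.000126). Ednrb, the endothelin B receptor and a marker of aerocyte capillary cells, was at 8.69, 9.74 and 8.51 in DKO and 15.2, 15.2 and 14.6 in WT (limma log2 change -0.69 ± 0.12 SE, adjusted p = 0.00363). Dkk2, a Wnt modulator of arteries, was at 12.9, 13.9 and 13 in DKO and 19.4, 16.8 and 19.2 in WT (limma log2 change -0.45, adjusted p = 0.000833). The genotypes were apart for each, with Gpihbp1 the one that was higher in DKO.

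Of 14 tested lymphatic markers, 1 was higher and 4 lower, beside 3.84% and 4.32% of all genes. Nts, which encodes the peptide neurotensin, was at 14.1, 15.6 and 14.3 FPKM in DKO and 29.2, 28.0 and 29.2 in WT (limma log2 change -0.93 ± 0.08 SE, adjusted p = 2.15e-05). Lyve1, a hyaluronan receptor, was at 280, 268 and 235 in DKO and 339, 336 and 359 in WT (limma log2 change -0.40, adjusted p = 0.00341). Sema3d, a secreted semaphorin, was at 1.86, 1.98 and 1.85 in DKO and 4.06, 4.17 and 4.65 in WT (limma log2 change -0.87, adjusted p = 0.000158). All DKO values of these genes lay under all WT values. Lyve1 also belongs to the list of capillary, arterial and venous markers, and in bulk RNA a smaller share of a cell type cannot be told apart from less RNA in each cell.

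The angiogenic list held 3 higher and 1 lower of 23 genes (17.4% beside 8.16% of all genes). Pgf, the placental growth factor, was at 283, 282 and 286 FPKM in DKO and 238, 233 and 236 in WT (limma log2 change 0.27, adjusted p = 0.000312). Cxcr4, the receptor of the chemokine CXCL12 on tip cells, was at 205, 216 and 202 in DKO and 160, 163 and 171 in WT (limma log2 change 0.33, adjusted p = 0.00121). Plaur, the urokinase receptor, was at 142, 149 and 152 in DKO and 184, 176 and 180 in WT (limma log2 change -0.28, adjusted p = 0.000449). Each of these was separate between genotypes, with Plaur the lower one. Of 15 vasoactive mediators and receptors, 1 was higher and 4 lower (33.3%), with Ramp3, a partner of the adrenomedullin receptor, at 6.19, 4.88 and 5.52 in DKO and 8.29, 7.24 and 7.69 in WT (limma log2 change -0.42, adjusted p = 0.0063). That count of 5 was 2 without DKO library 2 and 3 without any other single normoxia library.

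Genes of the matrix and its receptors differed in both directions. Of 26 tested collagens and basement membrane genes, 5 were higher and 3 lower (30.8% beside 8.16% of all genes). Col15a1, a basement membrane collagen of vessels, was at 5.81, 5.72 and 5.46 FPKM in DKO and 1.74, 1.93 and 2.04 in WT (limma log2 change 1.20 ± 0.09 SE, adjusted p = 6.57e-06). Fbn1, which encodes the microfibril protein fibrillin 1, was at 3.10, 2.79 and 2.83 in DKO and 5.13, 5.89 and 4.67 in WT (limma log2 change -0.67, adjusted p = 0.000231). The groups did not meet in either gene. Of 12 integrins, 1 was higher and 4 lower (41.7%), among them Itga6, a laminin receptor, at 127, 130 and 125 FPKM in DKO and 154, 169 and 152 in WT (limma log2 change -0.31, adjusted p = 0.000373), and Itgb4, a subunit that pairs with it, at 3.77, 4.01 and 3.27 in DKO and 5.99, 5.96 and 5.68 in WT (limma log2 change -0.56, adjusted p = 0.00205).

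Of 24 metalloproteinases and their inhibitors, 5 were higher and 3 lower (33.3% beside 8.16% of all genes). Timp3, a matrix-bound inhibitor, was at 65.1, 64.0 and 58.9 FPKM in DKO and 89.7, 90.5 and 90.0 in WT (limma log2 change -0.52 ± 0.05 SE, adjusted p = 3.44e-05). Adamts7, a protease of vessel walls, was at 9.52, 10.1 and 9.28 in DKO and 6.70, 7.46 and 6.95 in WT (limma log2 change 0.40, adjusted p = 0.000799). DKO held less of the inhibitor and more of the protease, without overlap. The count of 8 fell to 3, 5 and 4 without DKO library 1, 2 or 3 and to 5, 4 and 4 without WT library 1, 2 or 3. Of 25 targets of YAP and of actin signaling, 1 was higher and 5 lower (24.0%), led by Fstl1, a secreted glycoprotein, at 230, 233 and 234 FPKM in DKO and 298, 302 and 314 in WT (limma log2 change -0.39, adjusted p = 1.26e-05). Without WT library 2, 3 of the 25 passed. Among axon guidance genes, which also steer vessels, Sema3a was at 51.1, 58.3 and 54.4 FPKM in DKO and 81.1, 79.3 and 73.2 in WT (limma log2 change -0.50, adjusted p = 0.00375), while Sema7a was at 71.5, 71.5 and 67.8 in DKO and 47.6, 49.8 and 53.6 in WT (limma log2 change 0.48, adjusted p = 0.000194).

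Inflammatory genes included 4 higher and 2 lower of 10 tested chemokines and cytokines, beside 8.16% of all genes in either direction. Csf3, which encodes the neutrophil growth factor G-CSF, was at 6.01, 6.42 and 5.39 FPKM in DKO and 3.53, 3.62 and 3.16 in WT (limma log2 change 0.64, adjusted p = 0.000484). Ccl7, a chemokine that draws monocytes, was at 50.7, 60.4 and 57.8 in DKO and 34.9, 37.96 and 37.1 in WT (limma log2 change 0.60, adjusted p = 0.000545). Cxcl12, the ligand of CXCR4, was at 8.50, 8.48 and 8.15 in DKO and 10.4, 13.2 and 11.4 in WT (limma log2 change -0.43, adjusted p = 0.0112). The first pair was higher and Cxcl12 lower in DKO, with no overlap. Of 9 complement and acute phase genes, 3 were higher and 1 lower: C3, the central complement protein, was at 5.75, 5.33 and 5.32 FPKM in DKO and 1.92, 1.88 and 1.80 in WT (limma log2 change 1.17 ± 0.16 SE, adjusted p = 0.000672).

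Lcn2, an iron-binding acute phase protein, was at 16.9, 13.5 and 14.3 FPKM in DKO and 6.94, 7.54 and 7.47 in WT (limma log2 change 0.93, adjusted p = 0.00337). Ptx3, a secreted pattern recognition protein, was at 7.48, 6.99 and 6.76 in DKO and 3.20, 3.67 and 3.21 in WT (limma log2 change 0.89, adjusted p = 0.00318). Icam1, the adhesion molecule that holds leukocytes, was at 50.4, 48.7 and 51.2 in DKO and 37.2, 38.1 and 38.9 in WT (limma log2 change 0.39, adjusted p = 0.000123), the only one of 10 leukocyte adhesion genes past the threshold. DKO was above WT in every library for these genes. Other immune lists showed little: 0 higher and 1 lower of 36 interferon-stimulated genes and 0 of 17 genes of MHC class I and antigen presentation passed in limma. The interferon-stimulated gene was Oas1a, a sensor of viral RNA with several close copies, at a limma log2 change of -0.69 (adjusted p = 0.029), and its call ended without DKO library 1, 2 or 3 or WT library 1 or 2 (adjusted p = 0.0592, 0.098, 0.0619, 0.102 and 0.103). Without WT library 1, 1 of the 17 MHC genes passed.

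Metabolic and stress lists ranged from none of their members past the threshold to shares above the 8.16% of all genes. None of 48 nuclear genes of oxidative phosphorylation and none of 22 genes of the unfolded protein response passed in limma, though without DKO library 1 the counts were 3 and 1. Of 36 genes of the ATF4 stress response and serine synthesis, 1 was higher and 5 lower (16.7%). Phgdh, the first enzyme of serine synthesis, was at 37.6, 40.1 and 43.2 FPKM in DKO and 67.9, 67.5 and 67.3 in WT (limma log2 change -0.73 ± 0.05 SE, adjusted p = 4.85e-06). Of 25 NRF2 antioxidant genes, 1 was higher and 3 lower (16.0%), and Nqo1, the quinone reductase that marks NRF2 activity, was at 122, 123 and 124 in DKO and 161, 153 and 162 in WT (limma log2 change -0.37, adjusted p = 2.78e-05). Blvrb, which lies near Map3k10 as given below, was the higher NRF2 gene. Phgdh and Nqo1 were lower in every DKO library than in any WT library, and 2 of the 25 NRF2 genes passed without DKO library 3 or without WT library 2.

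At 21% oxygen, 4 of 35 targets of the hypoxia-inducible factors outside glycolysis were higher and 1 lower (14.3% beside 8.16% of all genes). Egln3, the prolyl hydroxylase of the feedback on these factors, was at 14.5, 13.7 and 14.5 FPKM in DKO and 10.8, 10.8 and 11.8 in WT (limma log2 change 0.33, adjusted p = 0.00639). Ddit4, an inhibitor of mTORC1, was at 47.4, 41.2 and 39.9 in DKO and 33.2, 33.2 and 35.2 in WT (limma log2 change 0.33, adjusted p = 0.00972). Neither overlapped between genotypes, while the list median was 0.02, and 3 of the 35 passed without DKO library 3 or without WT library 1. Of 20 glycolysis genes, 3 were higher and 1 lower (20.0%), with Pdk1, which keeps pyruvate out of mitochondria, at 5.43, 5.29 and 5.96 in DKO and 4.38, 4.26 and 4.36 in WT (limma log2 change 0.30, adjusted p = 0.00375). Without DKO library 2 or WT library 2, 2 of these 20 passed. Of 50 ribosomal protein genes only Rpl18 passed (limma log2 change 0.22, adjusted p = 0.00505), and its call ended with the 6 normoxia libraries alone (adjusted p = 0.0647), with 8 of the 50 without DKO library 1 and 2 without DKO library 3.

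**Figure D4:**
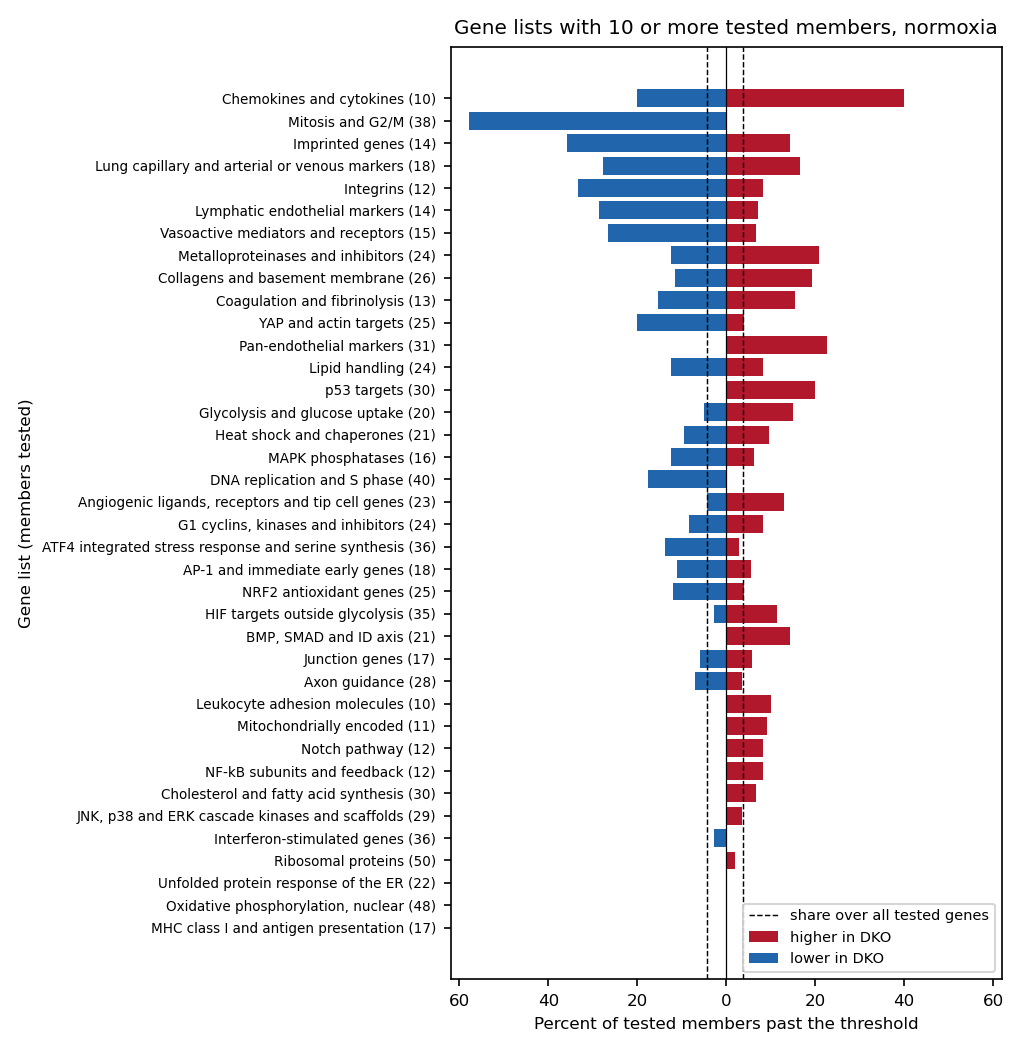
Bars give the percent of tested members past the threshold in normoxia, higher in DKO to the right and lower to the left, for the 38 gene lists with 10 or more tested members, and dashed lines give the share over all tested genes (3.84% higher, 4.32% lower). Mitosis genes reach 57.9% on the lower side with no member on the higher side.

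Imprinted genes, which are expressed from 1 parental copy, included 2 higher and 5 lower of 14 tested (50.0% beside 8.16% of all genes). H19, a noncoding RNA expressed from the maternal copy, was at 35.0, 37.0 and 36.9 FPKM in DKO and 74.5, 71.8 and 74.1 in WT (limma log2 change -0.9985 ± 0.08 SE, adjusted p = 2.06e-05). Peg3, a zinc finger factor expressed from the paternal copy, was at 2.62, 2.71 and 2.21 in DKO and 4.89, 5.83 and 4.80 in WT (limma log2 change -0.81, adjusted p = 9.64e-05). Ndn, a growth suppressor also expressed from the paternal copy, was at 94.0, 103 and 104 in DKO and 71.0, 72.6 and 73.1 in WT (limma log2 change 0.47, adjusted p = 0.000127). No DKO value of these genes lay within the WT range, with Ndn higher and H19 and Peg3 lower. H19 lies on chromosome 7, as Map3k10 does, 115 Mb from it. Whether position on that chromosome bears on this list was not tested.

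Many genes near Map3k10 passed the threshold. Within 10 Mb on either side of it on chromosome 7, 42 of 196 tested genes passed (21.4%), 17 higher and 25 lower, beside 7.97% of the 10997 genes that are near neither targeted gene. The share was 22.8% within 5 Mb and 17.5% within 20 Mb. High shares were not confined to that region: farther along chromosome 7, 10 of 38 genes passed between 80 and 90 Mb from Map3k10 (26.3%) and 7 of 33 between 30 and 40 Mb (21.2%). By size, 8.16% of the genes within 10 Mb passed with a change over 0.5, beside 1.55% of the other genes. The shares were not tested against each other. Within 10 Mb of Map3k11 on chromosome 19, 10 of 185 passed (5.41%), none of them over 0.5, and the count there was 6 without DKO library 2 or without WT library 2. Chromosome 7 as a whole had 12.8% of its genes past the threshold, chromosome X 11.2%, and every other autosome between 5.28% and 9.68%.

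Several of the largest changes lay in the region of Map3k10. They included Blvrb, Mrps12, Gmfg and Zfp93, whose values or changes are given above, and Zfp14, a zinc finger gene at 4.94, 6.37 and 5.98 FPKM in DKO and 2.51, 2.48 and 2.14 in WT (limma log2 change 1.00, adjusted p = 0.000284). Fbxo17, Pvrl2, Pepd and Plaur, also given above, lay within 10 Mb of Map3k10 as well, and Pop4 lay 10.6 Mb from it. Near Map3k11, the protease inhibitor Cst6 had a limma log2 change of 0.42 (adjusted p = 0.00799) and Ehbp1l1, a protein of vesicle traffic, one of -0.34 (adjusted p = 0.00357). Of 3 tested genes known to differ between C57BL/6 substrains, 1 passed. Ide, the insulin-degrading enzyme, was at 17.3, 17.1 and 15.5 FPKM in DKO and 25.1, 28.2 and 27.3 in WT (limma log2 change -0.66 ± 0.05 SE, adjusted p = 1.71e-05), while Nnt and Wdfy1 each had one of -0.02 (limma adjusted p = 0.881 and 0.934). Xist, expressed in female cells, was at 15.0, 15.2 and 13.8 in DKO and 15.0, 15.4 and 13.8 in WT, and the Y-linked genes Ddx3y, Kdm5d and Uty were listed at 0 in all 6 libraries, with Eif2s3y at 0.0259 in a single WT library. Erdr1, at 0 in DKO as given above, has its GENCODE position on chromosome Y. It was at 8.96 to 11.5 FPKM in these same WT libraries, so that position does not show that its RNA came from chromosome Y. Why it was absent in DKO was not tested. Whether the DKO and WT mice shared a genetic background around these genes was not tested.

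**Figure D5:**
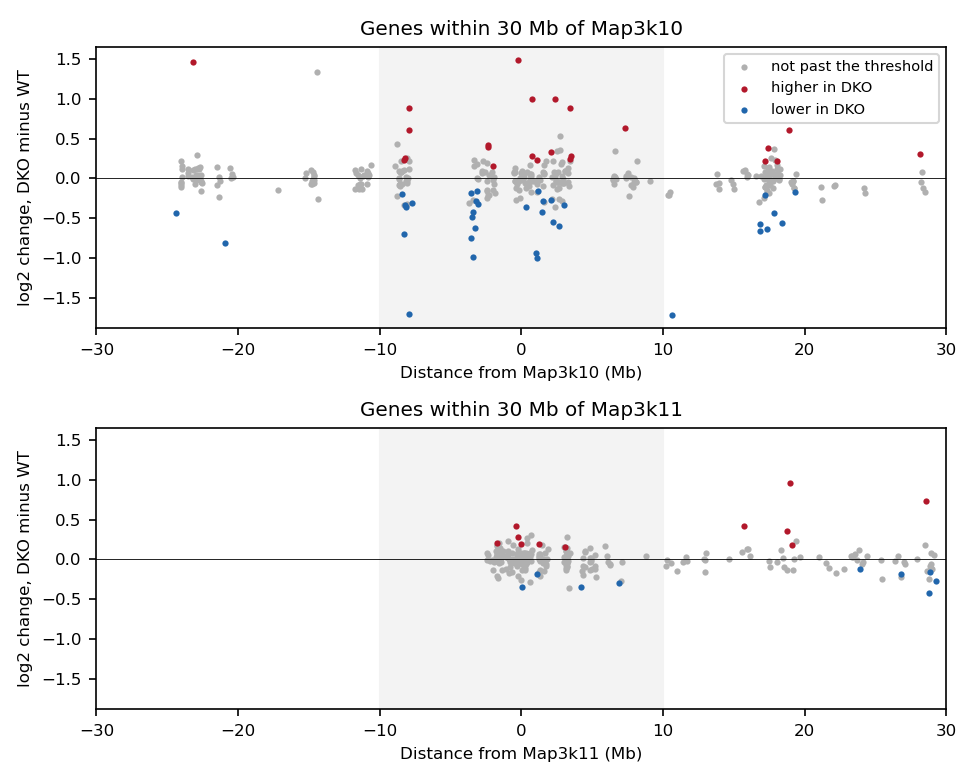
The log2 change, DKO minus WT, of each tested gene is plotted against its distance from Map3k10 (top) and Map3k11 (bottom) in Mb, with genes past the threshold in color and the 10 Mb window shaded. Around Map3k10, 42 of 196 genes in the window are colored and 16 of these lie beyond 0.5, against 10 of 185 and none around Map3k11.

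Markers of other cell types were low, and some differed. The summed level of 17 macrophage and leukocyte markers was 96.7, 94.0 and 106 FPKM in DKO and 50.5, 42.9 and 52.5 in WT, most of it Lyz2 and Cd14. Of 6 tested, 2 were higher (beside 3.84% of all genes) and 0 lower, 5 changes were positive, and the list median was 0.347. The 2 were Lyz2 and Cd14. Cd14, a receptor of bacterial lipopolysaccharide, was at 25.4, 25.9 and 25.4 in DKO and 20.1, 18.6 and 20.6 in WT (limma log2 change 0.36, adjusted p = 0.00131). The defining leukocyte markers Ptprc, Adgre1 and Csf1r were all under 1 FPKM and Cd3e was at 0 in the 6 libraries, though Ptprc was at 0.737, 0.287 and 0.760 in DKO and 0.0820, 0.156 and 0.168 in WT. The part of such cells in the inflammatory genes above was not tested.

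The 15 fibroblast markers summed to 682, 650 and 609 FPKM in DKO and 633, 753 and 654 in WT, nearly all of it Fn1 and Thy1, which cultured endothelial cells can also express. Of the 4 tested, 2 were higher, beside 3.84% of all genes. Among them was Dcn, a small proteoglycan, at 2.86, 2.89 and 3.03 in DKO and 1.51, 1.65 and 1.21 in WT (limma log2 change 0.68, adjusted p = 0.000511). The count of 2 was 1 without DKO library 1, 2 or 3 or WT library 2 or 3. Col1a1, Col1a2 and Pdgfra stayed under 1 FPKM. The 12 smooth muscle and pericyte markers summed to 32.9, 33.1 and 34.4 in DKO and 31.8, 41.6 and 31.6 in WT. Of these, 2 of 4 tested were higher, again beside 3.84% of all genes. Acta2, smooth muscle actin, was at 4.24, 5.07 and 5.05 in DKO and 2.40, 3.17 and 1.96 in WT (limma log2 change 0.73, adjusted p = 0.00388). The 14 epithelial markers summed to 28.5, 31.3 and 33.8 in DKO and 30.1, 35.2 and 32.8 in WT, most of it the keratin Krt18 (limma log2 change -0.05, adjusted p = 0.747), and none of the 3 tested passed in limma. Without DKO library 3, 1 of them did. Epcam, Sftpc and Msln, which define epithelium and mesothelium, were at most 0.0770 FPKM in any normoxia library.

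The same genotype comparison in hypoxia sets other libraries against each other than that in normoxia. Both came from 1 limma fit with a shared variance per gene, so their calls are not independent. In hypoxia, 1832 of 11378 genes passed the threshold in limma (16.1%). That count was 1185 without DKO hypoxia library 1 and 1175 without WT hypoxia library 2. Of the 929 normoxia genes, 271 were higher and 267 lower at both oxygen levels, which is 57.9% of the normoxia genes and 29.4% of the hypoxia genes, and 5 passed in opposite directions. The fitted changes had the same sign in 818 of the 929 (88.1%), beside 61.6% of all tested genes. Clca2, Blvrb and Col15a1 had log2 changes of 1.58, 1.52 and 1.35 in hypoxia, and Pop4, Nts and H19 of -1.92, -1.29 and -1.13, all past the threshold in limma with adjusted p of at most 6.45e-06.

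The difference between the genotype changes at the 2 oxygen levels passed the threshold for 22 genes (0.193%), 8 with a higher and 14 with a lower change in hypoxia. Of the 929 normoxia genes, 6 were among them. The count ranged from 1 to 39 when single libraries were left out: it was 4 without WT normoxia library 1, 39 without WT hypoxia library 1, and at most 2 without DKO normoxia library 1, 2 or 3, WT normoxia library 2 or 3, DKO hypoxia library 1 or 3, or WT hypoxia library 2.

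The mitosis list had a median near 0 in hypoxia. There, 0 of the 38 were higher and 2 lower in DKO, beside 7.68% and 8.42% of all genes, with a median of -0.00141. The difference of the changes was positive in 37 of 38, beside 50.9% of all genes, with a median of 0.27. This difference takes in the normoxia changes, all negative here, so a positive lean is partly built in. None of the 38 differences passed the threshold in limma, while 25 of 38 had an unadjusted p under 0.05, beside 1820 of all 11378 genes. Centred on the same normoxia mean, the list median was 0.01, -0.05 and 0.05 in the DKO hypoxia libraries and 0.02, 0.00 and 0.06 in the WT ones. The genotypes thus overlapped there and lay between the DKO and WT values in normoxia. For Ube2c the log2 change was -0.44 in normoxia and -0.19 in hypoxia, and for Prc1 it was -0.36 and -0.07. Of the 40 replication and S phase genes, 1 was higher and 1 lower in hypoxia, beside the same shares of all genes. The difference of the changes was positive in all 40, and here too most normoxia changes were negative. Of the 40, 17 had an unadjusted p under 0.05 in limma, beside the same 1820 of 11378 genes, and none passed the threshold.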

How the data were processed

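Lung endothelial cell RNA of 12 libraries was sequenced. The authors deposited FPKM values per transcript, and the submitters' processing notes name TopHat2. Its version, the genome build, the annotation and the FPKM program are not given in the sources. FPKM were summed over the 52655 transcripts into 23422 gene identifiers, and 11378 with a mean of at least 1 were tested. limma 3.58.1 in R 4.3.3 was fitted to log2(FPKM + 1) with 1 coefficient per group over all 12 libraries (8 residual degrees of freedom), moderated with a trend. Adjusted p are Benjamini-Hochberg values over all tested genes, with a threshold of 0.05. Gene positions are from GENCODE M21 (GRCm38) by Ensembl identifier, found for 11253 tested genes, and promoter windows from RefSeq (GRCm38.p6). Tables used Python 3.11.15 with pandas 2.3.3 and scipy 1.17.1, and plots matplotlib 3.10.9.

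FPKM are not counts. Depth was estimated from the steps between low values of 10891 genes with 1 transcript, after taking 275 bases off their length. In data simulated for the normoxia comparison, 48.5%, 93.5% and 97% of 200 genes changed by 0.25, 0.5 and 1 log2 units were called. Of the calls, 4.4% were unchanged genes.

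Groups came from the labels. Genes were named by a rule: the 10 largest changes each way among called genes without overlap (predicted genes passed over), the 5 most abundant called genes each way with a change of at least 0.5, up to 4 called members of each list by p (2 by level where none passed), up to 5 near each targeted gene, and the 5 largest differences between oxygen levels each way. Members of a list chosen otherwise are named as such or shown as markers and relatives. The members and lists were chosen with earlier results of these data known. Genes that the rule would choose but that are not reported here were passed over, and stay in the counts. The alternatives were another pseudocount (0.1), a minimum of 5 FPKM or none, no trend, array weights, equal library medians, quantile normalization, the 6 normoxia libraries alone, each transcript on its own, a replicate block and leaving out each library.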

Additional observations from a re-analysis of the deposited data

Results flagged for a closer look

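Each value here is the log2 difference of the genotype changes, hypoxia minus normoxia, and limma's test of that difference passed the threshold. The 5 largest differences each way are given, of the 22 genes that passed. For Map3k10 the difference was 1.0185, from a change of -4.11 in normoxia to -3.09 in hypoxia, with DKO at 0.131 to 0.169 FPKM and at 1.02 to 1.34. For the ETS factor Etv4 it was 0.3793, from -0.25 to 0.13. For Ackr3, a decoy receptor of CXCL12, it was -0.9949, and DKO was at 1.80 to 2.85 FPKM in normoxia and 0.616 to 0.942 in hypoxia. Trmt5, a tRNA methyltransferase, had a difference of -0.6943 (0.20 to -0.49). Zfp760, a zinc finger gene, had one of -0.6559 (0.10 to -0.55). Clec2d, a C-type lectin, had one of -0.6332 (0.26 to -0.38). Lrrn4cl, a membrane protein, had one of -0.5993 (-0.13 to -0.73). Kcnj2, an inward rectifier potassium channel, had a difference of 0.6923, with changes of 0.34 and 1.03. For Arhgap20, a GTPase-activating protein, it was 0.5436 (-0.18 to 0.36). For Tmem97, the sigma-2 receptor, it was 0.3853 (-0.04 to 0.34).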

How the results depend on the processing

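The normoxia count of 929 was 616 with the 6 normoxia libraries alone and 557 genes when each transcript was tested on its own. It lay between 583 and 806 when single normoxia libraries were left out, with 283 to 448 higher and 294 to 379 lower genes. The lower count was 311 with the 6 libraries alone. Near Map3k11 the count of 10 was 4 with those libraries alone and 6 to 9 without single ones. The count of the difference between oxygen levels, 22, was 153 with array weights, 6 without a trend, 12 after quantile normalization, 1 with the replicate block and 1 to 39 without single libraries. The hypoxia count of 1832 was 1175 to 1873 without single libraries.

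Same-numbered DKO and WT normoxia libraries had deviations with r of -0.0397, 0.0522 and 0.0109, within the -0.135 to 0.131 of differently numbered ones. Whether normoxia and hypoxia libraries of 1 genotype pair by number was not examined. The replicate block gave 899 normoxia genes.

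Of the 140 named genes past the threshold, 97 kept their call in each of the up to 15 alternatives run per gene (all but the single transcripts and the left-out hypoxia libraries), 43 lost it in at least 1, and none reversed. Genes short of the threshold changed sign. Xist was at 0.0252 with array weights, 0.0055 with equal medians and 0.0070 after quantile normalization, and between -0.0508 and 0.0327 without single libraries. Krt18 lay between -0.1031 and 0.0087 and Tmem97 between -0.0799 and 0.0147 without single libraries. The share of higher genes among those called was 44.5% to 55.6%, and 47.0% with all libraries. The cause of these shifts was not tested. The depth of the libraries is an estimate, so no interval was built on it.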
